A study of Mus musculus with 8 samples.

Results

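Whole lungs harvested 48 hours after intratracheal LPS were compared with lungs of mice that received no LPS, to ask which genes, pathways and cell types LPS moved and whether mice of both genotypes answered alike. All 8 arrays of the series entered the comparison, 4 labelled inLPS and 4 with no stimulus in their label, and expression of the p52 transgene was kept as a second factor. No vehicle instillation is named for the unexposed mice in the sources used here. Effects of the instillation itself can therefore not be told apart from those of LPS, and both are called the LPS effect below. The mice were on the FVB background and aged 8 to 12 weeks, with both sexes evenly mixed, and every mouse drank doxycycline at 2 g/L with 2% sucrose for 1 week, so the unexposed groups carry doxycycline too. CCSP-p52 mice carry a doxycycline-driven activator (rtTA) under the promoter of the Clara cell secretory protein gene, a silencer (tTS) under the same promoter, and FLAG-tagged p52, the processed form of the NF-κB subunit encoded by Nfkb2, under a tet operator. The transgene is therefore on in airway epithelium and not across the whole lung. WT mice were littermates negative for these transgenes. Each of the 4 groups (WT and CCSP-p52, unexposed and after LPS) had 2 arrays, and each array held RNA pooled from 3 mice, so the 24 mice gave 8 measurements and the spread given below is that between pools.

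LPS is a component of the outer membrane of Gram-negative bacteria. It is sensed through CD14, MD-2 and Toll-like receptor 4 on macrophages, epithelium and endothelium, which switches on NF-κB and interferon regulatory factors and so the genes for cytokines, chemokines and adhesion molecules. In the airspaces this brings in neutrophils and then monocytes, and LPS given into the trachea is a widely used model of acute lung injury, in which the thin barrier of alveolar type I cells and capillary endothelium is damaged.

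Expression levels are log2 values, and a difference between LPS and unexposed lungs (logFC) is a difference of log2 levels in which 1 stands for a doubling. A gene is said to have risen or fallen where limma's test over all 8 arrays, with genotype as second factor, gave an adjusted p under 0.05 over the 18820 genes tested. Where 4 levels of 1 gene stand in a row, they are WT pool 1, WT pool 2, CCSP-p52 pool 1 and CCSP-p52 pool 2.

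The libraries were not alike in 3 respects that touch the results. The pools of a group correlated at 0.996 in both unexposed groups and at 0.985 (WT) and 0.980 (CCSP-p52) after LPS, over all genes. CCSP-p52 LPS pool 2 moved least: of the 6492 genes called in either direction it was the least changed of the 4 LPS pools for 4641 (71.5%), and its median change in the called direction was 0.33 against 0.55 to 0.64 in the others. WT LPS pool 2 carried transcripts of other tissues, with a mean over 13 skeletal muscle genes of 9.16 against 6.84 to 7.39 on the other 7 arrays and a mean over 16 squamous and basal epithelium genes of 9.85 against 6.24 to 6.43. Krt13, a keratin of stratified epithelium, read 6.28, 11.71, 6.34 and 6.19 in the LPS pools and 6.25, 6.20, 6.40 and 6.46 in the unexposed pools. Krt5, the basal cell keratin, read 11.59 in WT LPS pool 2 and 6.29 to 6.67 elsewhere. WT LPS pool 1 stood apart in airway secretory genes, described with the airway epithelium. Of the second factor itself, Nfkb2 read 9.51, 9.58, 10.20 and 10.33 without LPS, so both CCSP-p52 pools were above both WT pools, and 10.83, 10.56, 11.28 and 10.53 after LPS. The lung identity of the samples was plain in the unexposed pools, where the surfactant gene Sftpc read 13.87 to 13.98, the type I cell receptor Ager 13.16 to 13.19, the club cell secretoglobin Scgb1a1 13.63 to 13.77 and the endothelial cadherin Cdh5 13.22 to 13.30.

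LPS moved 34.5% of the genes tested, with more genes lower than higher and with the larger changes upward. In the additive model 2562 of 18820 genes rose (13.6%) and 3930 fell (20.9%), and these shares are the background for every gene list below. By at least 1 on the log2 scale, 704 genes rose (3.74%) and 495 fell (2.63%). All 4 LPS pools lay above all 4 unexposed pools for 2833 genes (15.1%) and below them for 4097 (21.8%). The median logFC of all genes was 0.00. Leaving out CCSP-p52 LPS pool 2 gave 3272 genes higher and 4712 lower, and leaving out any other single array gave fewer calls than that, down to 1752 and 2773.

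The 15 genes with the largest rise held a C-type lectin, chemokines, interleukin 1 family members, neutrophil proteins and a metabolic enzyme known from activated macrophages. Clec4e (Mincle), a lectin receptor for glycolipids of microbes and damaged cells, led them, with levels of 6.73, 6.18, 6.82 and 6.76 without LPS and 12.79, 12.50, 12.76 and 11.55 after it. The lowest LPS pool, CCSP-p52 pool 2, was still far above the highest unexposed pool, and the logFC was 5.78 ± 0.28 (SE). No detection call was available for these values, so whether its unexposed levels, which lie near those of Krt13, were above background was not determined, and rises from such levels are differences of measured levels and not exact folds. Acod1, the enzyme that makes itaconate, went from 6.72, 6.59, 7.82 and 7.62 to 13.18, 12.95, 13.09 and 12.23, a logFC of 5.67 ± 0.31. Its unexposed CCSP-p52 pools were above its unexposed WT pools, and all LPS pools were far above both. Next came Cxcl2 (5.64), Ccl3 (5.45), Mmp8 (5.29), Cxcl9 (5.29), Cxcl10 (5.14), Saa3 (5.11), Slfn4 (4.96), the interleukin 1 family gene Il1f9 (4.93), Ly6i (4.89), S100a8 (4.65), the cystine transporter gene Slc7a11 (4.61), the metalloprotease inhibitor gene Timp1 (4.50) and the interleukin 1 receptor antagonist gene Il1rn (4.47). The largest falls were smaller and lay in genes of dendritic cells, fibroblasts, endothelium and secreted matrix or signalling proteins. Cd209a, a lectin of monocyte-derived dendritic cells, fell most, from 10.09, 9.78, 10.05 and 9.83 to 7.75, 6.60, 7.05 and 7.11, a logFC of −2.81 ± 0.22. It was followed by the collagen gene Col6a5 (−2.76), Scube2 (−2.71), the paraoxonase gene Pon1 (−2.60), the Wnt inhibitor gene Wif1 (−2.54), the GLP-1 receptor gene Glp1r (−2.50), the hemicentin gene Hmcn1 (−2.48), the apelin receptor gene Aplnr (−2.41), the integrin gene Itga8 (−2.37) and the matrix proteoglycan gene Ogn (−2.31).

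**Figure D1:**
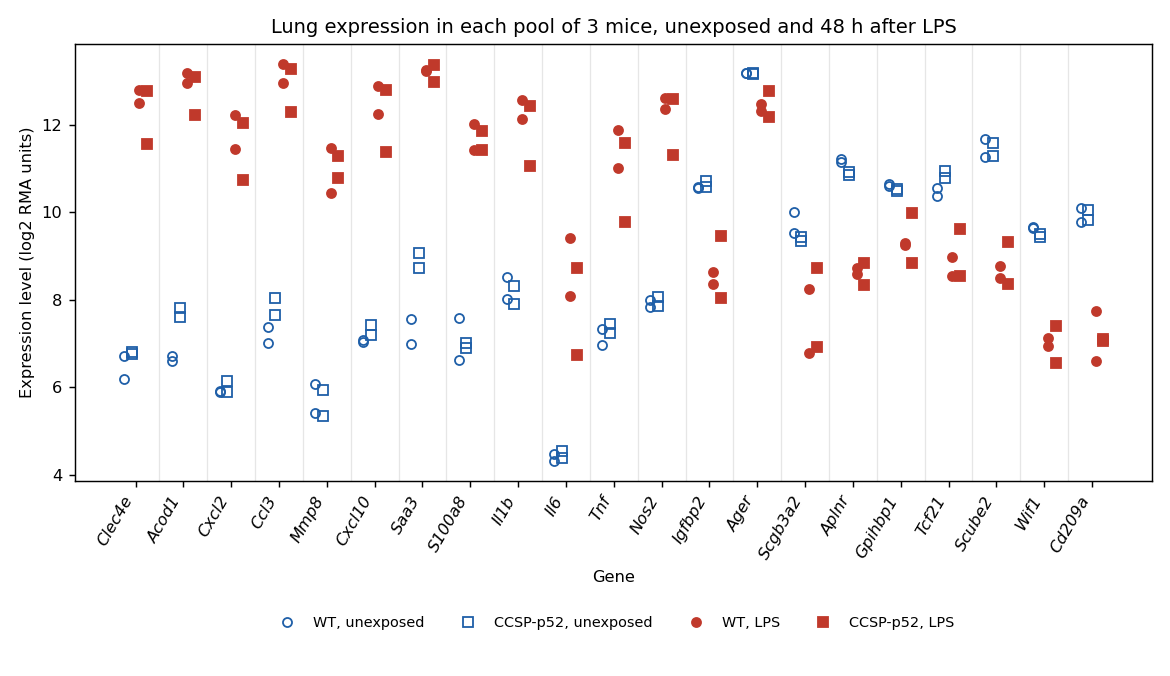
Expression level (vertical axis, log2 RMA units) of 21 genes in each of the 8 pools, with open symbols for unexposed lungs, filled symbols for lungs 48 hours after LPS, circles for WT and squares for CCSP-p52. For all 12 genes on the left the 4 LPS pools lie above the 4 unexposed pools and for all 9 on the right below them, and in many genes the CCSP-p52 LPS pool nearest the unexposed pools is pool 2.

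Chemokines that draw neutrophils and monocytes rose in most cases. Of 6 measured neutrophil-attracting CXC chemokine genes 4 rose and 0 fell, with a list median logFC of 2.26, and of 12 monocyte-attracting CC chemokine genes 10 rose and 0 fell, with a median of 2.37. Cxcl2, a ligand of the neutrophil receptor CXCR2, read 5.92, 5.90, 5.90 and 6.14 without LPS and 12.22, 11.44, 12.03 and 10.73 after it. Its unexposed pools lay close together, and CCSP-p52 LPS pool 2 was the lowest of the LPS pools. The other CXCR2 ligands Cxcl5, Cxcl3 and Cxcl1 rose by 2.88, 2.42 and 2.11. Cxcl15 (lungkine), which lung epithelium makes at rest, had a logFC of 0.00, and the platelet chemokine gene Ppbp one of −0.39, neither of which passed the test. Ppbp passed it, at −0.55, without CCSP-p52 LPS pool 2. Among CC chemokines, Ccl3 (MIP-1α) rose by 5.45, Ccl2 (MCP-1), the main ligand of the monocyte receptor CCR2, by 4.18, Ccl7 by 3.72 and Ccl8 by 2.74. The eosinophil attractants Ccl11 and Ccl24 had logFC values of 0.14 and −0.07 and did not pass. Of 13 CXCR3 ligands and lymphoid chemokines 8 rose and 2 fell. The interferon-inducible ligands Cxcl9, Cxcl10 and Cxcl11, which draw activated T and natural killer cells, rose by 5.29, 5.14 and 4.23, and the B cell attractant Cxcl13 by 3.64. Cxcl12, which stromal cells and endothelium make at rest, fell by 0.75. The other that fell, Cx3cl1, had a logFC of −0.29 and missed the threshold without any 1 of WT unexposed pools 1 and 2, CCSP-p52 unexposed pool 1, CCSP-p52 LPS pool 1 or WT LPS pool 2 (−0.32 to −0.24).

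The promoters of 5 genes that rose are shown because they hold short sequence patterns of the factors named above. Patterns were searched on both strands from 250 bases before to 50 bases after each start in RefSeq promoters of build GRCm38.p6, available for 14749 of the genes tested. Of these genes 2522 had more than 1 promoter, and a gene counted where any of its promoters matched. The shares below are therefore shares of genes. They were GGG and TTCC spaced by 3 bases for NF-κB, GAAA repeated after a spacer of 2 bases for the interferon-stimulated response element (ISRE), TTC and GAA spaced by 3 bases for STAT (GAS) and TGANTCA for AP-1, and matches of different patterns may overlap. In the lines below, which run 5′ to 3′ on the strand of the gene and end at the base before its start, capitals mark NF-κB matches in Cxcl2 and Il6, NF-κB and ISRE matches in Cxcl10, and ISRE matches in Isg15 and Ifit1.
Cxcl2: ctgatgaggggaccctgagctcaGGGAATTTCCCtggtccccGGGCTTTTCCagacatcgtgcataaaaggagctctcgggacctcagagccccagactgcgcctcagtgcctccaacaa
Il6: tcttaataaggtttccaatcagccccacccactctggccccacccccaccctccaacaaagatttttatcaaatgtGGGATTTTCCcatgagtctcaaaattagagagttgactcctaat
Cxcl10: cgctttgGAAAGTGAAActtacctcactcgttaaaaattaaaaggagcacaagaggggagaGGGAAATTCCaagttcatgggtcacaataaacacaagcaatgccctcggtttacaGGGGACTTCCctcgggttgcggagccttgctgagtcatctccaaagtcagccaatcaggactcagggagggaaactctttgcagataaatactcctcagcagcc
Isg15: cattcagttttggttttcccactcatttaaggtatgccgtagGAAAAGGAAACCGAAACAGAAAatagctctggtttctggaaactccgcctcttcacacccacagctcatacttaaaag
Ifit1: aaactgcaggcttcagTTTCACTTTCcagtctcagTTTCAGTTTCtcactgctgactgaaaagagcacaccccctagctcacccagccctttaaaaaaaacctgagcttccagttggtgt
These stretches are chr5:90903779-90903898 (plus strand) for Cxcl2, chr5:30012994-30013113 (plus) for Il6, chr5:92348890-92349109 (minus) for Cxcl10, chr4:156200819-156200938 (minus) for Isg15 and chr19:34640769-34640888 (plus) for Ifit1. The Cxcl10 stretch holds an ISRE match that begins 213 bases before the start and NF-κB matches that begin 159 and 104 bases before it. In Cxcl2 overlapping NF-κB matches begin 97 and 96 bases before the start and another begins 78 bases before it, and in Il6 the match begins 44 bases before it. The NF-κB pattern was present in 12.1% of the genes that rose by at least 1 (67 of 552 with a promoter). It was present in 6.52% of all genes with a promoter and 6.93% of those that fell by at least 1. For the ISRE pattern these shares were 10.9%, 3.91% and 3.20%, for the GAS pattern 12.3%, 9.06% and 7.47%, and for the AP-1 pattern 14.7%, 7.92% and 6.67%. In the 1494 genes with a promoter that rose by under 1 the shares lay nearer to those of all genes. They were 6.96% for NF-κB, 5.29% for ISRE, 8.50% for GAS and 8.77% for AP-1. By list, the ISRE pattern was in 10 of 18 interferon-stimulated antiviral genes and 5 of 6 interferon gamma-inducible GTPase genes with a promoter. The NF-κB pattern was in 8 of 17 genes of the NF-κB list, 3 of 5 of the CXC list and 3 of 13 of the inflammatory cytokine list. It was also in 4 of 18 antiviral and 2 of 6 GTPase genes, while the ISRE pattern was in 0 genes of the other 3 lists. The AP-1 pattern was in 5 of 13 inflammatory cytokine genes and the GAS pattern in 3 of 6 GTPase genes. A match is a run of letters and was not tested for binding.

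Of 18 inflammatory cytokine genes 17 rose and 0 fell, with a median logFC of 1.26. Il6, the fever and acute phase cytokine, read 4.48, 4.32, 4.38 and 4.54 without LPS and 9.41, 8.09, 8.73 and 6.73 after it. All LPS pools were above all unexposed pools, and CCSP-p52 LPS pool 2 was the lowest of the LPS pools. Tnf, the early macrophage cytokine, gave 7.33, 6.97, 7.44 and 7.24 and then 11.88, 11.01, 11.59 and 9.77, again with CCSP-p52 LPS pool 2 lowest. The logFC was 3.81 ± 0.46 for Il6 and 3.81 ± 0.40 for Tnf. Il1a and Il1b rose by 4.46 and 3.86, and so did the genes that restrain interleukin 1, the antagonist Il1rn (4.47) and the decoy receptor Il1r2 (3.85). In the interleukin 1 family list with its receptors and inflammasome genes, 18 of 20 rose and 0 fell (median 1.68). Il33, the alarmin stored in type II cell nuclei in mouse lung, rose by 0.71, and the interleukin 18 receptor gene Il18r1 had a logFC of 0.01. Il10 rose by 1.36, and Il17a (0.27) did not pass. The feedback genes Socs1, Socs3 and Pim1 of the interleukin 6 and JAK-STAT pathway rose by 2.16, 1.92 and 1.87, while the receptor gene Lifr fell by 1.20. Among TNF superfamily genes 12 of 21 rose and 2 fell, or 1 without WT unexposed pool 1 or CCSP-p52 unexposed pool 1. The receptors Tnfrsf9 (2.53), Tnfrsf1b (2.35) and Fas (0.92) rose and Tnfsf10 (TRAIL) fell by 0.50. The median of this list was 0.46, and 0.28 without WT LPS pool 1, and its rising count also changed with single arrays left out.

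NF-κB genes and their inhibitors rose together. Of 19 measured subunit, inhibitor and feedback genes 17 rose and 0 fell, with a median of 1.14. The largest were the ubiquitin-binding inhibitor gene Tnip3 (2.54), the kinase gene Ikbke (2.52), the deubiquitinase gene Tnfaip3, known as A20 (2.21), Irak3, a brake on Toll-like receptor signalling (2.19), the IκB-like genes Bcl3 (1.71) and Nfkbiz (1.57), and Birc3 (1.15). Of these, Tnip3 rose less in CCSP-p52 than in WT lungs, a difference that did not pass and is given with the genotype differences below. Nfkbia, the classical inhibitor IκBα, rose by 0.89, and Rela, the p65 subunit, had a logFC of 0.21 that did not pass over all arrays and passed, at 0.28, without WT LPS pool 2. Nfkb2 rose by 0.89, with 1.15 in WT and 0.64 in CCSP-p52 lungs, whose unexposed level was already higher. The whole-array test of that difference gave −0.51 ± 0.33 (limma adjusted p = 0.92). Of 22 genes for LPS sensing and Toll-like receptors 16 rose and 2 fell. Cd14, the LPS co-receptor, went from 8.10, 7.96, 8.16 and 7.94 to 12.46, 12.09, 12.35 and 11.23, and Tlr4 itself rose by 0.73. Tlr2 (2.63), Tlr13 (2.71), Tlr8 (1.60) and the adaptor gene Myd88 (1.50) rose. Those that fell were the flagellin receptor gene Tlr5 (−0.57) and the inhibitory receptor gene Sigirr (−0.41), and Tlr3 had a logFC of −0.07.

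Acute phase genes rose in 14 of 17 cases, with a median of 1.36 and none that fell. Saa3, a serum amyloid A made locally in inflamed lung, read 7.56, 6.99, 9.08 and 8.74 without LPS and 13.25, 13.23, 13.35 and 12.98 after it. The 4 LPS pools lay close together, while the unexposed CCSP-p52 pools were above the unexposed WT pools, so that the change was 5.97 in WT and 4.26 in CCSP-p52 lungs. Lcn2, the siderophore-binding lipocalin of neutrophils and epithelium, showed the same order, with 9.96, 9.54, 10.63 and 10.04 and then 13.83, 13.77, 13.68 and 13.53. Orm1 rose by 3.88, the ferrireductase gene Steap4 by 2.97 and Serpina3n by 1.66. The fibrinogen chain genes Fga and Fgb, which the liver makes in the acute phase, had logFC values of 0.04 and 0.10. Metallothionein genes, which bind zinc and copper, rose as well. Mt2 read 9.74, 9.74, 10.28 and 10.33 and 13.24, 13.33, 13.44 and 13.42, so that neither the unexposed nor the LPS pools spread much around a logFC of 3.33 ± 0.10. Mt1 rose by 2.57. The list of metallothionein, glucocorticoid and fasting targets had 8 of 14 genes higher and 0 lower, with Fkbp5 (1.92) and Angptl4 (1.24) among them, and 2 fell without CCSP-p52 LPS pool 2. The glucocorticoid targets Tsc22d3 (GILZ) and Per1 had logFC values of −0.25 and −0.05.

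Neutrophil genes rose strongly, apart from those of the primary granules. In whole lung RNA, more cells of a type and more RNA per cell cannot be told apart, and the same holds for the falls described below. The arrays were normalised together, so a level is relative to the RNA of all cells. A fall can therefore not be told apart from a larger share of RNA from other cells. Of 13 surface and cytokine-receptor genes 12 rose and 0 fell, with a median of 3.36. S100a8, a subunit of calprotectin, which fills neutrophil cytosol, read 7.58, 6.62, 7.00 and 6.91 without LPS and 12.03, 11.43, 11.86 and 11.42 after it. Cxcr2, the receptor for the chemokines above, read 7.78, 7.14, 7.54 and 7.19 and 11.49, 11.03, 11.35 and 10.76. For both genes every LPS pool was well above every unexposed pool, and CCSP-p52 LPS pool 2 was the lowest LPS pool by a small margin. Csf3r, the G-CSF receptor, rose by 2.81 and Clec4d by 4.23. Retnlg, a resistin-like gene of neutrophils, read 7.10, 6.59, 6.89 and 7.21 without LPS and 11.18, 10.40, 11.04 and 11.19 after it, with no overlap. Of 14 granule genes 9 rose and 0 fell. Collagenase Mmp8 (5.29), Ngp (4.16), gelatinase Mmp9 (2.72) and lactoferrin Ltf (1.80), stored in the later granules of maturing neutrophils, rose. Myeloperoxidase Mpo (0.21 ± 0.11), elastase Elane (0.20 ± 0.07) and Prtn3 (0.25 ± 0.11), whose transcripts belong to bone marrow precursors, did not pass. Elane passed with the replicate number as a block, at the same 0.20. The NADPH oxidase that makes the respiratory burst rose as a set, with 5 of 5 genes higher, from Cyba (1.47) to Cybb (2.68).

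Genes of recruited monocytes and macrophages rose in 21 of 24 cases, with 0 lower and a median of 2.10. Fcgr4, an activating Fc receptor of monocytes and neutrophils, read 6.96, 6.37, 6.82 and 6.19 and 10.97, 10.43, 11.23 and 10.02, with no overlap. Ms4a6d rose by 3.66, coagulation factor F10 by 3.70, arginase Arg1 by 2.07 and the complement chain genes C1qa and C1qc by 1.13 and 1.78. Fn1 and Thbs1, also made by stromal cells and platelets, had logFC values of −0.10 and 0.18. All 11 Fc receptor and ITAM signalling genes rose, among them the common chain gene Fcer1g (2.81) and the inhibitory receptor genes Fcgr2b (2.51), Lilrb4a (2.76) and Pirb (2.13). C-type lectin genes rose in 10 of 14 cases, with Clec5a (3.52) and Clec12a (2.70) beside Clec4e and Clec4d, and the 2 that fell were Cd209a and the endothelial lectin gene Clec14a (−1.79). Resident alveolar macrophage genes were split. The scavenger receptor gene Marco (0.94), the integrin gene Itgax (0.90), Plet1 (0.69) and Chil3 (3.22) were among 6 of 15 that rose. Siglecf, the lectin by which these cells are sorted, read 7.53, 7.40, 7.49 and 7.51 and 7.62, 7.35, 7.33 and 7.49, and its logFC was −0.04. Car4 fell by 0.83, though it is also an enzyme of capillary endothelium, and Pparg had a logFC of −0.21 that passed, at −0.25, without CCSP-p52 LPS pool 2. The number of these genes that fell was 2, but 4 without CCSP-p52 LPS pool 2 and 1 without WT unexposed pool 1, CCSP-p52 unexposed pool 1 or either WT LPS pool. Dendritic cell genes were divided 4 to 4, with Fscn1 (0.87), the actin bundler of mature dendritic cells, higher, and Clec9a (−0.79), the receptor of the cross-presenting type, lower. The rising count was 1 without WT LPS pool 1 and 2 without either WT unexposed pool, either CCSP-p52 unexposed pool or CCSP-p52 LPS pool 1, and the falling count 2 without either WT unexposed pool.

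Metabolic genes changed as well, some of them known from activated macrophages. Which cells carried these changes in whole lung RNA was not tested. All 7 genes of itaconate, arginine and nitric oxide metabolism rose. Nos2, inducible nitric oxide synthase, read 7.84, 7.99, 8.07 and 7.87 and 12.61, 12.36, 12.58 and 11.30, and the arginine transporter gene Slc7a2 rose by 2.80. All 18 glycolysis and hypoxia genes rose, with a median of 1.23. Among these were the hexokinase genes Hk3 (3.28) and Hk2 (1.62), the glucose transporter gene Slc2a1 (1.71), the lactate exporter gene Slc16a3 (2.61), Pgk1 (1.68) and Pfkfb3 (1.12). Respiratory chain genes moved little, with a median of 0.15, and of 25 measured 7 rose, led by Cox5a (0.66), and 0 fell. The median was 0.07 without CCSP-p52 LPS pool 1, and 1 fell without pool 2 of that group. Only 2 of these rose without either WT unexposed pool, either CCSP-p52 unexposed pool or the first LPS pool of either genotype, and 4 without WT LPS pool 2. Of 16 Nrf2 target and antioxidant genes 9 rose, with Slc7a11 (4.61), heme oxygenase Hmox1 (2.33) and mitochondrial superoxide dismutase Sod2 (1.77) far above the list median of 0.34. Catalase Cat (−0.78) and extracellular superoxide dismutase Sod3 (−0.49) fell.

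Interferon-driven genes rose without exception among the members measured. All 25 antiviral genes rose (median 1.81), all 11 interferon gamma-inducible GTPase genes and partners rose (median 2.28), and all 15 MHC class I and immunoproteasome genes rose (median 0.97). Ifit1, which binds foreign RNA caps, read 8.17, 8.03, 8.06 and 7.90 and 10.59, 9.97, 10.91 and 9.60, and Isg15, a ubiquitin-like protein, 5.86, 5.81, 6.06 and 6.12 and 8.10, 7.69, 8.83 and 7.41. In both genes CCSP-p52 LPS pool 1 was the highest pool and CCSP-p52 LPS pool 2 the lowest LPS pool. Zbp1, a sensor of Z-form nucleic acid, rose by 3.48, Oas3 by 3.10 and the transcription factor gene Irf7 by 2.76. Ifng itself, made by natural killer and T cells, read 6.45, 6.38, 6.60 and 6.66 and 9.97, 9.45, 10.35 and 8.64, a logFC of 3.08 ± 0.33. Its targets Ido1 (3.88), Gbp5 (3.37), Gbp2 (2.56), Iigp1 (2.43) and Irgm1 (2.39) rose. So did the peptide transporter genes Tap1 (1.71) and Tap2 (1.27), the immunoproteasome subunit gene Psmb8 (1.51) and the transactivator gene Nlrc5 (1.70). Constitutive proteasome genes rose in 22 of 24 cases with smaller changes (median 0.47), from which Psmd14 (0.92) and Psma5 (0.89) stood out. With single arrays left out that median ran from 0.394 to 0.535, and fewer of these genes passed in some of those fits. MHC class II and costimulation genes rose in 10 of 11 cases, led by Cd80 (2.21) and Cd86 (1.51), and H2-Ob, a B cell modulator of peptide loading, fell by 0.65.

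Lymphocyte genes showed a smaller and uneven response. Of 14 natural killer and cytotoxic effector genes 9 rose, with granzymes Gzmb (1.74) and Gzma (1.31), Il2rb (1.56) and the receptor Klrk1, known as NKG2D (1.51). The receptors Klrb1c (−0.10), Klre1 (−0.13) and Klrd1 (0.02), by which natural killer cells are counted, did not pass. Few T cell genes were called, with 1 of 13 higher (Ctla4, 0.58) and 1 lower (Lef1, −0.79), and Cd3e had a logFC of 0.17 ± 0.29. Without CCSP-p52 LPS pool 2, 4 of the 13 rose. B cell genes had 4 of 13 lower and 0 higher, or 1 higher without CCSP-p52 LPS pool 2. Bank1 fell by 1.07, the complement receptor Cr2 by 0.75 and Pax5 by 0.72, while the antigen receptor chain genes Cd79a (−0.64) and Cd79b (−0.54) did not pass, except with the replicate number as a block. The list median was −0.38, and −0.23 without WT LPS pool 2. Of 10 mast cell, basophil and eosinophil genes 1 fell, the stem cell factor receptor gene Kit (−1.36), which other lung cells also use, and 2 fell without the second LPS pool of either genotype. Of 5 red cell genes the anion exchanger gene Slc4a1 (−0.86) fell, and 2 fell without CCSP-p52 LPS pool 2.

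Genes of cell division rose. Of 26 G1 and S phase genes 21 rose and 1 fell, and of 35 G2 and M phase genes 32 rose and 0 fell, with medians of 0.54 and 0.81. The 1 that fell, the cyclin gene Ccnd2 (−0.27) passed only with all 8 arrays or without CCSP-p52 LPS pool 1, among the fits that leave out at most 1 array. The G2 and M phase median was 1.17 in WT and 0.56 in CCSP-p52 lungs, a difference that was not tested for the list. Unexposed means of that list were 6.89, 6.75, 7.33 and 7.38. Against the unexposed mean of its genotype, each LPS pool rose by 1.34, 1.09, 0.88 and 0.26, in the order used for genes. Mki67, the proliferation antigen, read 8.12, 7.77, 8.85 and 8.90 without LPS and 10.20, 9.92, 10.01 and 9.23 after it. Top2a, topoisomerase II of dividing cells, read 6.97, 6.79, 7.79 and 7.72 and 9.06, 8.94, 9.12 and 8.39. For both, the unexposed CCSP-p52 pools were above the unexposed WT pools, CCSP-p52 LPS pool 2 was the lowest LPS pool, and the LPS and unexposed groups did not overlap. Cdk1 (1.48), Ccna2 (1.47), Plk1 (1.40), Rrm2 (1.39) and Ccne1 (1.04) rose, and the cyclin gene Ccnd1 had a logFC of −0.09. The cyclin kinase inhibitor gene Cdkn1a (p21) rose by 1.48 and Gadd45g by 1.27, whereas the inhibitor genes Cdkn1c (−0.70) and Cdkn2c (−0.73) fell. Of 14 apoptosis regulators of the BCL2 and IAP families 7 rose and 3 fell, with a median of 0.25, and these counts changed with single arrays left out. The killers Bak1 (1.21) and Bid (1.01) were among those that rose, together with the inhibitor Birc3 (1.15).

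**Figure D2:**
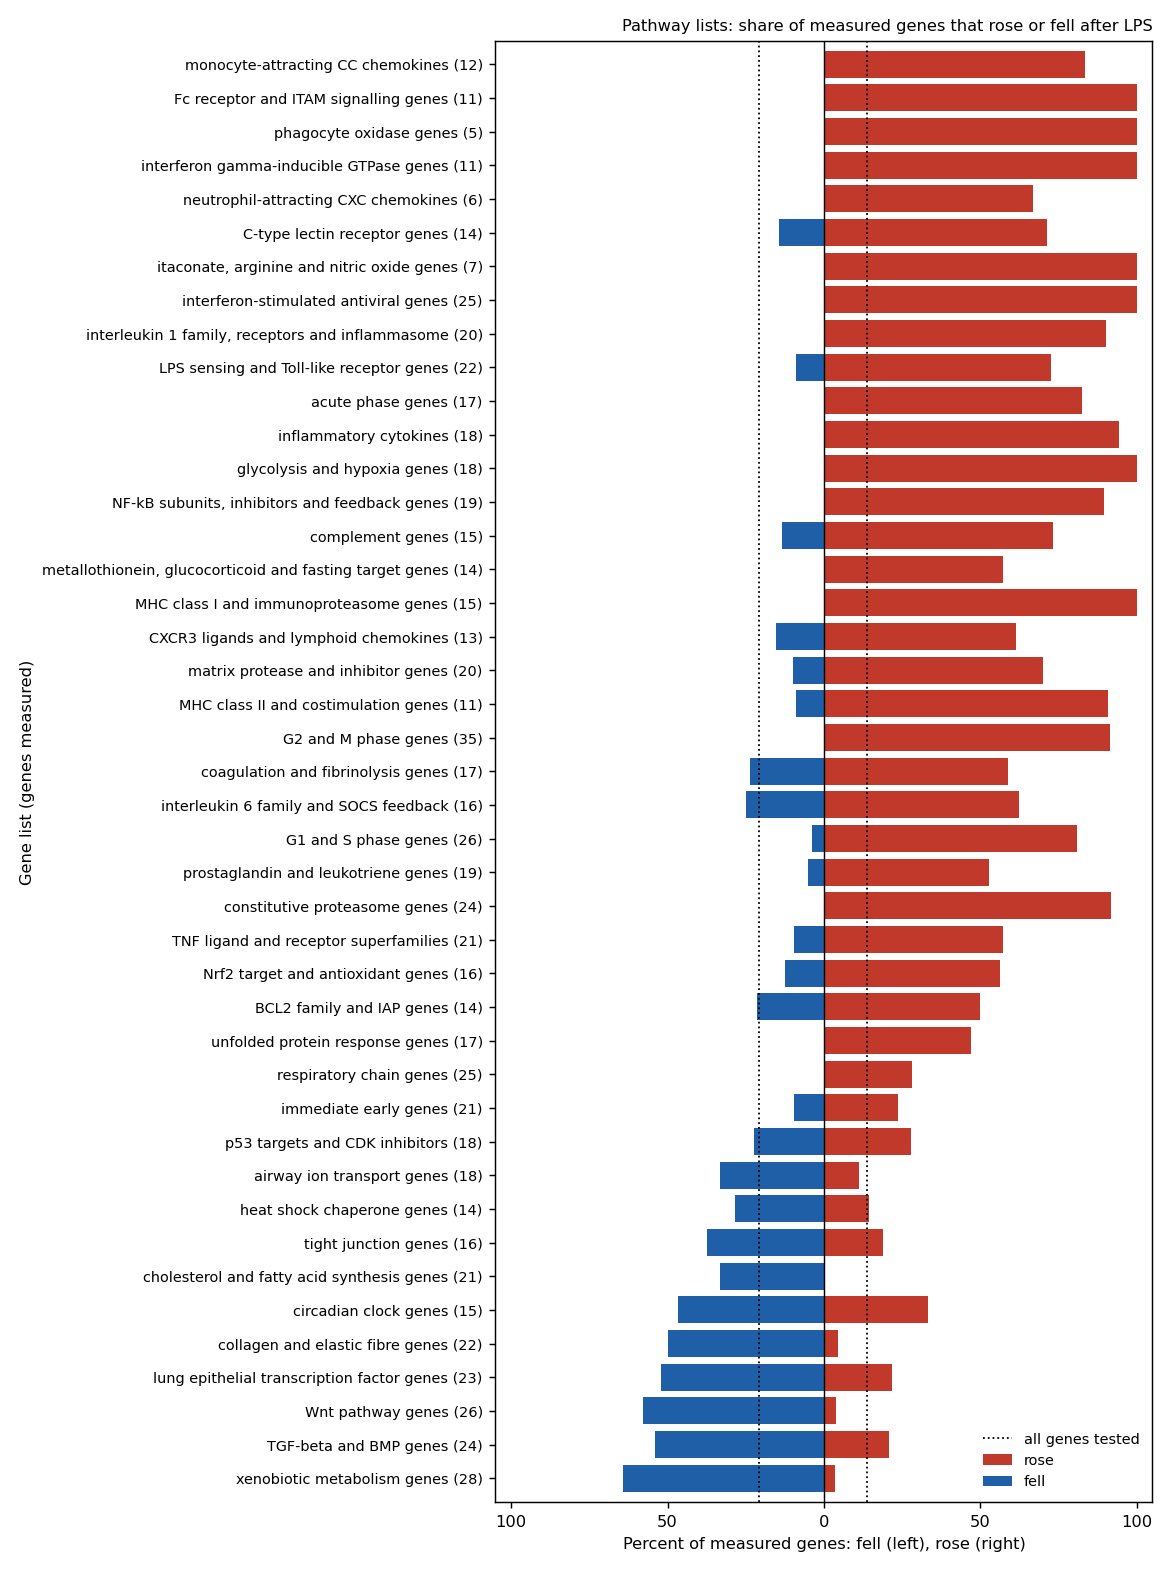
Percent of the measured genes of 43 pathway lists (number measured in brackets) that rose (right, red) or fell (left, blue) after LPS, ordered by list median logFC. Dotted lines mark the shares of all 18820 genes tested (13.6% higher and 20.9% lower), and immune lists reach 100% higher while xenobiotic, TGF-β and BMP, Wnt and collagen lists have 50% or more lower.

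Alveolar type I cell genes fell almost as a block, and type II cell genes did not. Of 18 type I genes 17 fell and 0 rose, with a median of −0.76. Ager (RAGE) read 13.19, 13.18, 13.16 and 13.18 without LPS and 12.46, 12.32, 12.18 and 12.77 after it. The unexposed pools were nearly equal and every LPS pool was lower, with CCSP-p52 LPS pool 2 nearest. Igfbp2, a growth factor binder of mature type I cells, read 10.58, 10.54, 10.72 and 10.57 and 8.37, 8.63, 8.03 and 9.45, a logFC of −1.98 ± 0.26. Rtkn2 (−1.49), Sec14l3 (−1.41), Vegfa (−0.86), Hopx (−0.83), the claudin gene Cldn18 (−0.65) and the water channel gene Aqp5 (−0.50) fell, and podoplanin Pdpn (0.20) passed only with the replicate number as a block, with array weights or with median centring, each time above 0. The type II list had 3 of 16 higher and 5 lower, with a median of −0.26. Surfactant protein genes Sftpa1 and Sftpc had logFC values of 0.06 ± 0.10 and −0.42 ± 0.18, of which Sftpc passed, at −0.61, without CCSP-p52 LPS pool 2. The phospholipid enzyme gene Lpcat1 fell by 0.73 and Dram1 rose by 0.53. Hc, which encodes complement C5, fell from 11.44, 11.20, 10.92 and 10.73 to 9.26, 9.49, 7.50 and 10.05, with CCSP-p52 LPS pool 1 far below the rest. The falling count was 2 without any 1 of 6 arrays, namely both WT unexposed pools, CCSP-p52 unexposed pool 1, both WT LPS pools and CCSP-p52 LPS pool 1. It was 8 when the second CCSP-p52 LPS pool was left out. The list median was −0.09 with CCSP-p52 LPS pool 1 left out and −0.40 with the second pool of that group left out.

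Airway secretory genes differed between the LPS pools. Of 17 club and secretory cell genes 2 rose and 7 fell. Against the unexposed mean of its own genotype, the list mean changed by −1.56 in WT LPS pool 1 and −0.03 in WT LPS pool 2. The changes were 0.03 in CCSP-p52 LPS pool 1 and 0.44 in CCSP-p52 LPS pool 2. These baselines differed, since unexposed list means were higher for WT (10.49, 10.59) than for CCSP-p52 (9.93, 9.74). After LPS the list means were 8.98, 10.51, 9.86 and 10.27, in the order used for genes. CCSP-p52 LPS pool 1 thus lay below WT LPS pool 2, though both had changed little. The list median logFC was −0.70 in WT and 0.12 in CCSP-p52 lungs, a difference that was not tested. Reg3g, an antibacterial lectin of secretory cells, read 9.25, 8.14, 6.72 and 6.23 without LPS and 5.79, 10.93, 10.47 and 8.90 after it. Bpifb1, a secreted lipid-binding protein, read 8.86, 8.90, 8.24 and 7.59 and 7.95, 11.49, 11.13 and 9.88, and Muc5b, the resting airway mucin, 8.77, 9.82, 8.59 and 8.57 and 8.72, 10.77, 10.99 and 10.09. In these 3 genes WT LPS pool 1 was the lowest LPS pool and lay inside or below the range of the unexposed pools, and none passed the test over all arrays. Without that pool all 3 passed, at 2.82, 2.60 and 1.77, and 6 secretory genes rose and 4 fell. The membrane mucin Muc4 rose by 0.89. The secretoglobin Scgb3a2 fell, from 9.52, 10.02, 9.35 and 9.43 to 6.79, 8.25, 6.93 and 8.72, with the second pool of each genotype higher than the first. Scgb1a1, whose promoter drives the transgene's activator, had a logFC of −0.25 ± 0.10 that did not pass, and passed at −0.35 without CCSP-p52 LPS pool 2 and at −0.25 with the replicate number as a block. Pon1 fell by 2.60 and the aldehyde dehydrogenase Aldh1a1 by 1.18. Fewer secretory genes rose (1) without WT unexposed pool 1, either CCSP-p52 unexposed pool, CCSP-p52 LPS pool 1 or WT LPS pool 2, and fewer fell (4) without either WT unexposed pool, CCSP-p52 unexposed pool 1 or the first LPS pool of either genotype. The list median of −0.25 was −0.06 without WT LPS pool 1 and −0.45 without CCSP-p52 unexposed pool 2. Of 22 ciliated cell genes 5 fell and 0 rose, with a median of −0.47 that was −0.29 without WT LPS pool 1. The tubulin-binding gene Tppp3 fell by 1.19, and Foxj1, the master factor of motile cilia, had a logFC of −0.12 ± 0.11. The falling count was 15 without CCSP-p52 LPS pool 2, 9 without WT LPS pool 2, and 1 or 2 without any other single array. Transcription factor genes of lung epithelium fell in 12 of 23 cases and rose in 5. The lineage factor gene Nkx2-1 read 10.47, 10.55, 10.56 and 10.63 and 9.65, 9.85, 9.69 and 10.17, with no overlap, and Elf5 (−0.89), Irx2 (−0.78) and Foxa1 (−0.56) fell too, while the injury-responsive factor genes Cebpb (1.17) and Elf3 (0.64) rose.

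Genes for barrier and fluid transport were mixed. Of 16 tight junction genes 3 rose and 6 fell. Cldn4, a claudin that seals injured alveolar epithelium, read 8.01, 7.82, 8.32 and 8.40 and 9.19, 9.44, 10.55 and 9.50, and every LPS pool was above every unexposed pool. Occludin Ocln (−0.85), the scaffold gene Tjp1 (−0.85) and Cldn8 (−1.36) fell. Of 18 ion and water transport genes 2 rose and 6 fell. Pendrin, Slc26a4, an anion exchanger of inflamed airway, read 6.34, 6.49, 7.18 and 8.24 and 9.65, 9.05, 9.26 and 8.38, so that the LPS group began just above the highest unexposed pool, a CCSP-p52 one. The endothelial water channel Aqp1 (−1.07), the chloride channel gene Ano1 (−0.74) and the potassium channel gene Kcnq1 (−0.91) fell, and the sodium channel subunit gene Scnn1a had a logFC of 0.02. Enzymes that clear foreign compounds, which club cells and endothelium hold, fell in 18 of 28 cases with 1 higher, and the list median was −1.05. With single arrays left out the median ran from −1.30 to −0.83, and the falling count changed too. Epoxide hydrolase Ephx1 fell by 1.66 and the flavin monooxygenases Fmo1 and Fmo2 by 1.58 and 1.12. Cyp1b1 was the one that rose, by 1.62. Cyp2f2, a club cell cytochrome, fell by 1.05 over all arrays and missed the threshold without any single array other than the second LPS pool of either genotype (−1.08 to −0.74).

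Endothelial genes fell, and several adhesion genes rose. Of 18 pan-endothelial genes 17 fell and 0 rose, with a median of −0.80, and of 17 subtype genes 13 fell and 0 rose, with a median of −0.79. Pecam1 (CD31) read 12.20, 12.28, 12.21 and 12.16 without LPS and 11.53, 11.70, 11.42 and 12.04 after it, and Cdh5 (VE-cadherin) fell by 0.47 ± 0.10. The receptor genes Kdr (−1.42), Tek (−1.42) and Ptprb (−1.60), which carry VEGF and angiopoietin signals, fell further. Gpihbp1, which holds lipoprotein lipase on capillaries, read 10.61, 10.65, 10.49 and 10.52 and 9.29, 9.25, 8.83 and 9.99. Aplnr, the apelin receptor, read 11.15, 11.22, 10.93 and 10.84 and 8.59, 8.74, 8.33 and 8.85. In these genes no LPS pool reached the unexposed range, and CCSP-p52 LPS pool 2 was the closest to it. The endothelin receptor Ednrb fell by 1.91, von Willebrand factor Vwf by 1.02 and the lymphatic receptor Flt4 by 0.78, while Lyve1 (0.04) and Slc6a2 (0.46) did not pass. Of 12 genes of leukocyte adhesion and inflamed endothelium 6 rose and 3 fell. P-selectin Selp, which catches rolling leukocytes, read 7.70, 7.57, 7.63 and 7.49 and 10.25, 9.85, 10.17 and 9.24, and the chemokine-carrying receptor gene of venules, Ackr1, rose by 1.66. Lrg1 rose by 2.63, E-selectin Sele had a logFC of 0.31, and Esm1 and Icam2 fell by 1.78 and 0.81. Coagulation genes moved both ways, with 10 of 17 higher and 4 lower. Tissue factor F3, which starts clotting, read 9.68, 9.89, 9.66 and 9.64 and 11.30, 10.90, 11.47 and 11.33, and thrombomodulin Thbd, the endothelial brake on thrombin, read 12.81, 12.94, 12.79 and 12.93 and 11.05, 11.46, 10.70 and 12.07. Protein S, Pros1, fell by 0.49, and the plasminogen activator gene Plat and the urokinase receptor gene Plaur rose by 1.19 and 1.10.

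Stromal genes fell as well. Of 15 lung fibroblast genes 11 fell and 0 rose, with a median of −1.24, the lowest of all 68 lists. Tcf21, the factor of lipofibroblasts, read 10.55, 10.38, 10.79 and 10.93 without LPS and 8.98, 8.54, 8.55 and 9.61 after it. Scube2, a carrier of hedgehog ligands, read 11.67, 11.26, 11.59 and 11.28 and 8.77, 8.49, 8.36 and 9.33, and for both genes CCSP-p52 LPS pool 2 was the highest of the LPS pools and still below the unexposed range. Npnt (−1.60) and Limch1 (−1.24) fell, while decorin Dcn (0.23), lumican Lum (0.05) and Fgf10 (−0.21) did not pass. Fgf10 passed with the replicate number as a block. Smooth muscle and pericyte genes fell in 12 of 15 cases, with Notch3 (−1.34), Cox4i2 (−1.27), Pdgfrb (−1.01) and Acta2 (−0.58). Muscle genes of the heart and pulmonary veins fell in 6 of 11 cases, among them Myl7 (−2.00) and Myl4 (−1.91). Of 22 collagen and elastic fibre genes 11 fell and 1 rose. Fibulin Fbln5 (−1.88), Col14a1 (−1.34) and Col6a3 (−0.93) fell, collagen I chain Col1a1 (−0.11) did not pass, and the crosslinking enzyme lysyl oxidase Lox read 10.62, 10.30, 10.30 and 10.38 and 11.59, 11.57, 11.66 and 11.93, so that it rose in all pools. Matrix proteases and inhibitors rose in 14 of 20 cases. Timp1 rose by 4.50, Adamts4 by 2.87 and the lysosomal protease gene Ctss by 2.23, whereas Timp2 fell by 0.75.

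Growth factor pathways that pattern the lung were mostly lower. Of 26 Wnt pathway genes 15 fell and 1 rose, with a median of −0.48. Wif1, a secreted Wnt trap, read 9.64, 9.67, 9.43 and 9.49 without LPS and 7.13, 6.95, 6.56 and 7.41 after it, a fall in every pool. The ligand genes Wnt2 (−1.23) and Wnt3a (−0.79) and the ligase gene Rnf43 (−0.58), itself a Wnt target and brake, fell, the ligand genes Wnt5a (0.06) and Wnt7b (0.09) did not pass, and the inhibitor gene Sfrp1 rose by 0.94. Of 24 TGF-β and BMP genes 13 fell and 5 rose. The BMP ligand genes Bmp3 (−1.89), Bmp6 (−1.59) and Bmp5 (−0.82) and the endothelial receptor gene Acvrl1 (−0.93) fell. Inhba, the activin A subunit, rose from 7.21, 7.05, 7.13 and 7.22 to 11.06, 10.43, 10.73 and 8.90, with CCSP-p52 LPS pool 2 at 8.90 and the other LPS pools at 10.43 or more. The rising count was 3 without either WT unexposed pool, CCSP-p52 unexposed pool 2 or the first LPS pool of either genotype. Circadian genes divided, with 5 of 15 higher and 7 lower. Nfil3 rose by 1.88 and its D-box opponent Hlf fell by 1.20, Per3 fell by 1.49, the nuclear receptor gene Nr1d2 (−1.38) fell too, and Per2 had a logFC of −0.28. The falling count was 3 without WT LPS pool 1 and 4 without either WT unexposed pool or CCSP-p52 unexposed pool 2. The hour of harvest of each group was not given in the sources used here.

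**Figure D3:**
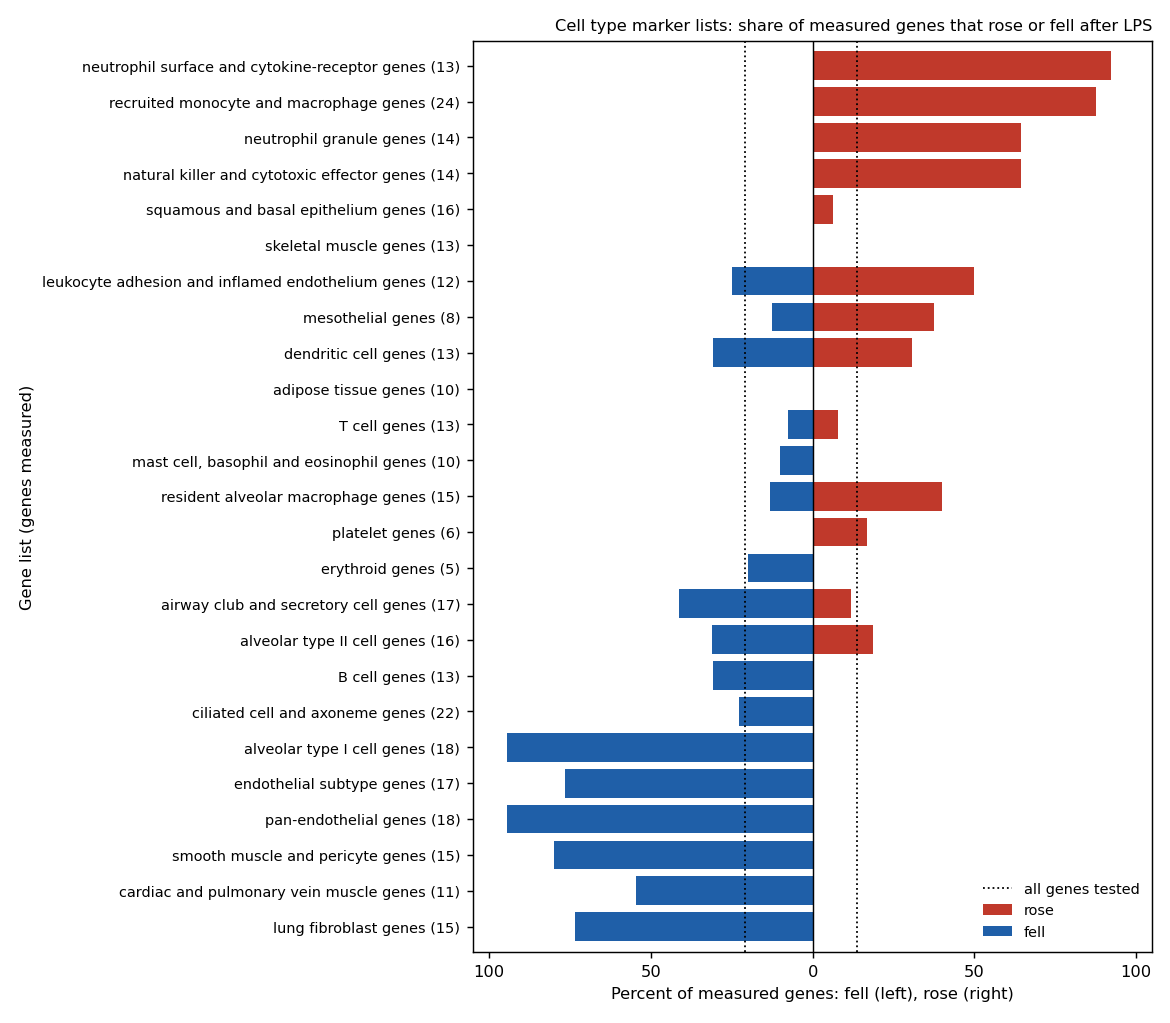
Percent of the measured genes of 25 cell type marker lists (number measured in brackets) that rose (right, red) or fell (left, blue) after LPS, ordered by list median logFC, with dotted lines at the shares of all genes tested (13.6% higher and 20.9% lower). Neutrophil, recruited macrophage and natural killer lists lie to the right, while type I cell, endothelial, fibroblast and smooth muscle lists lie to the left with 0 genes higher.

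Remaining mediator lists followed the immune ones. Complement genes rose in 11 of 15 cases, with factor B, Cfb (3.87), and the anaphylatoxin receptor genes C3ar1 (3.03) and C5ar1 (2.73) at the top. The falling count was 2, and 4 without CCSP-p52 LPS pool 2 and 1 without either WT unexposed pool or the first LPS pool of either genotype. Prostaglandin and leukotriene genes rose in 10 of 19 cases and 1 fell. The synthase gene Ptges (1.96), Alox5ap (1.80), the thromboxane synthase gene Tbxas1 (1.27) and the phospholipase gene Pla2g4a (1.12) rose, and the receptor gene Ptgfr fell by 1.77. The falling count was 3 without CCSP-p52 LPS pool 2. Sterol and fatty acid synthesis genes fell in 7 of 21 cases with 0 higher (1 without CCSP-p52 LPS pool 2), among them Insig1 (−0.85) and Hmgcs1 (−0.53), and 3 fell without WT unexposed pool 1 or WT LPS pool 2 and 4 without CCSP-p52 unexposed pool 1. Immediate early genes, which answer quickly to a stimulus, had 5 of 21 higher, such as Atf3 (1.61) and Egr2 (1.27), and 2 lower, of which Nr4a2 fell by 0.96. Without CCSP-p52 LPS pool 2, 5 fell. Of 17 unfolded protein response genes 8 rose, led by Sdf2l1 (1.25), but 3 rose without either WT unexposed pool, CCSP-p52 unexposed pool 1 or the first LPS pool of either genotype, and 5 without CCSP-p52 unexposed pool 2 or WT LPS pool 2.

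**Figure D4:**
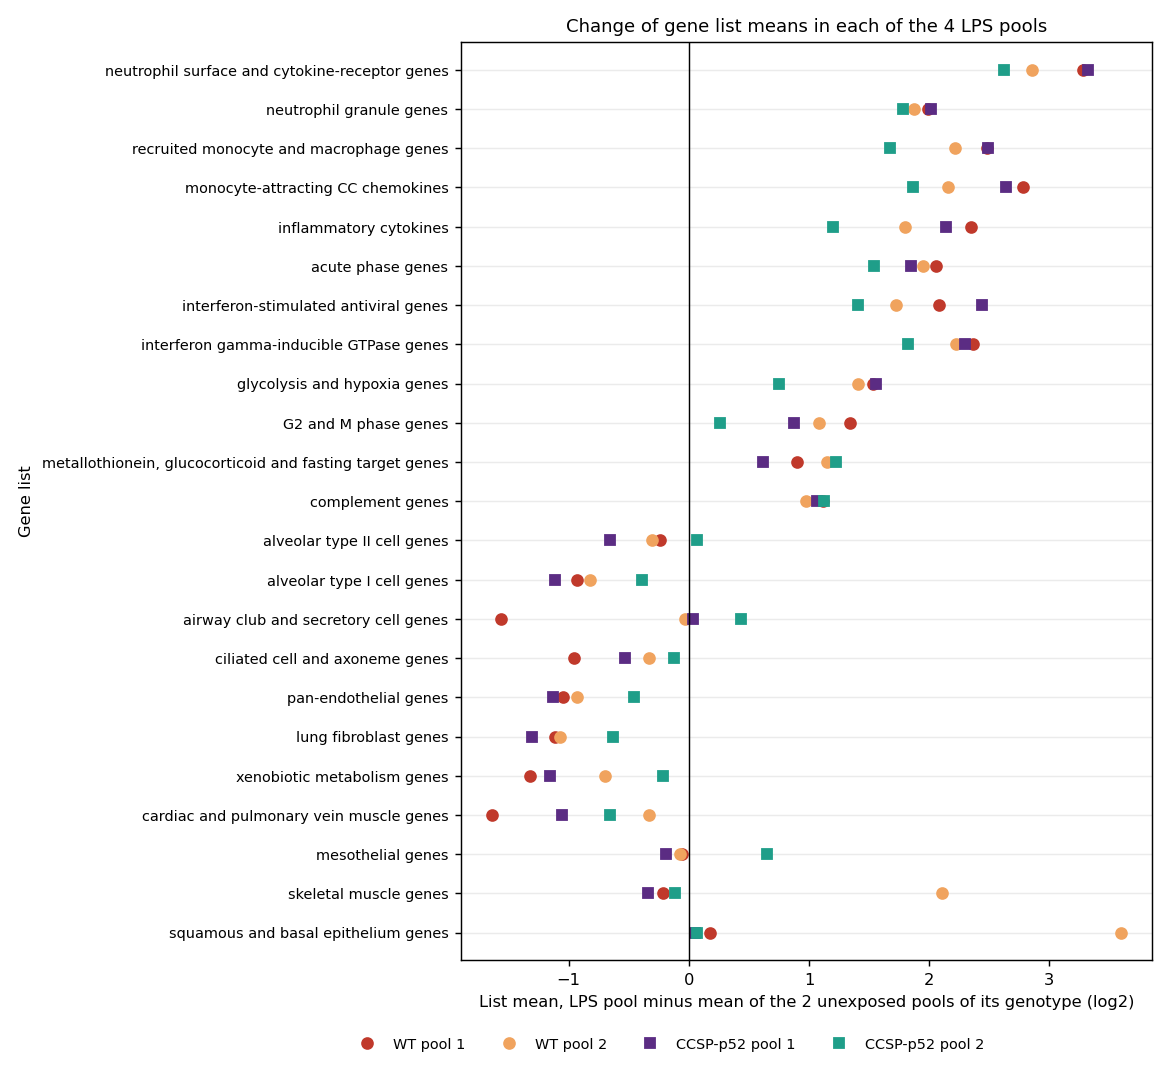
Change of the mean level of 23 gene lists in each of the 4 LPS pools (horizontal axis, log2, each pool minus the mean of the 2 unexposed pools of its genotype). In immune, epithelial and stromal lists CCSP-p52 pool 2 is mostly the point nearest 0, WT pool 1 stands alone in the secretory list at −1.56, and WT pool 2 stands alone in the skeletal muscle and squamous lists at 2.10 and 3.60.

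The 2 genotypes were set against each other in separate fits that share no array. In WT arrays alone 2041 genes were higher after LPS (10.8%) and 3215 lower (17.1%). Of these, 1922 (94.2%) of the higher and 3170 (98.6%) of the lower genes had the same direction in the CCSP-p52 arrays, against 14095 (74.9%) of all 18820 genes with 1 sign in both genotypes. Their median logFC was 0.80 in WT, where they were chosen, and 0.64 in CCSP-p52 for the higher genes, and −0.65 and −0.47 for the lower ones. The pools of CCSP-p52 lungs differed more than that from each other, since the median of the higher genes was 0.88 in CCSP-p52 LPS pool 1 and 0.41 in pool 2, and that of the lower genes −0.64 and −0.31. In CCSP-p52 arrays alone 87 genes were higher (0.462%) and 30 lower (0.159%), and all of these had the same direction in WT. Across all 18820 genes the logFC values of both genotypes had a Pearson r of 0.902 and a Spearman rho of 0.758, as a description over genes, which are not independent. The response of single LPS pools correlated between genotypes at 0.746 to 0.922.

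No gene differed in its LPS effect between genotypes at the threshold. Over all 8 arrays, limma's interaction test gave 0 genes higher and 0 lower in CCSP-p52 lungs, with 932 genes at an unadjusted p under 0.05 and a smallest adjusted p of 0.92. The median SE of that difference was 0.18 on the log2 scale, against 0.10 for the common LPS effect. With 2 pools a group even the difference of −1.71 ± 0.31 for Saa3 did not pass. Without WT LPS pool 1 the test gave 78 genes lower. In the 4-group model 1549 genes rose (8.23%) and 2666 fell (14.2%) in WT lungs, and 806 rose (4.28%) and 929 fell (4.94%) in CCSP-p52 lungs. The CCSP-p52 counts were 2258 and 2826 with the second LPS pool of that genotype left out, 33 and 13 without CCSP-p52 unexposed pool 2, 75 and 20 without CCSP-p52 unexposed pool 1, and 1428 and 1514 with the replicate number as a block. The WT counts were 134 and 156 without WT unexposed pool 2, 184 and 110 without WT unexposed pool 1, 576 and 553 without WT LPS pool 1 and 911 and 1140 without WT LPS pool 2. Where an array was left out, the pool that remained alone was taken to vary like the other groups. The 8 differences with the smallest p in each direction were named. Toward a higher effect in CCSP-p52 lungs these were the cytochrome gene Cyp4a12b (2.02 ± 0.26), Tecrl (1.22 ± 0.24), the bombesin receptor gene Grpr (1.05 ± 0.21), the ferritin light chain gene Ftl1 (0.69 ± 0.13), Zfp600 (0.77), Tmem60 (0.63), Zfp105 (0.62) and Mtrf1 (0.60). Toward a lower effect they were Saa3 (−1.71 ± 0.31), Olfr1382 (−1.40 ± 0.27), Tex24 (−0.92), Nipsnap3a (−0.89), Cblif (−0.88), Gkn3 (−0.85), 4931417E11Rik (−0.81) and Olfr5 (−0.76). Cyp4a12b read 7.41, 7.28, 5.74 and 5.26 without LPS and 4.99, 5.01, 4.99 and 5.37 after it, so that the genotypes were apart without LPS and near each other after it. Ftl1 read 10.50, 10.53, 10.51 and 10.42 and 11.25, 11.28, 11.97 and 11.85, and here they were apart after LPS. Of the genes described above, some differed by more than Saa3 but with wider errors, namely Reg3g (3.55 ± 2.09), Krt13 (−2.93 ± 2.06), Krt5 (−2.70 ± 1.88), Tnip3 (−2.26 ± 0.61), Slc26a4 (−1.83 ± 0.58) and Bpifb1 (1.75 ± 1.45). Acod1 (−1.47 ± 0.37), Mki67 (−1.36 ± 0.36) and Top2a (−1.12 ± 0.31) had, like Saa3, unexposed CCSP-p52 pools above the unexposed WT pools. None of all these differences passed. For the neutrophil genes S100a8 (0.06 ± 0.48) and Mmp8 (0.17 ± 0.55) the estimates were close to 0.

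**Figure D5:**
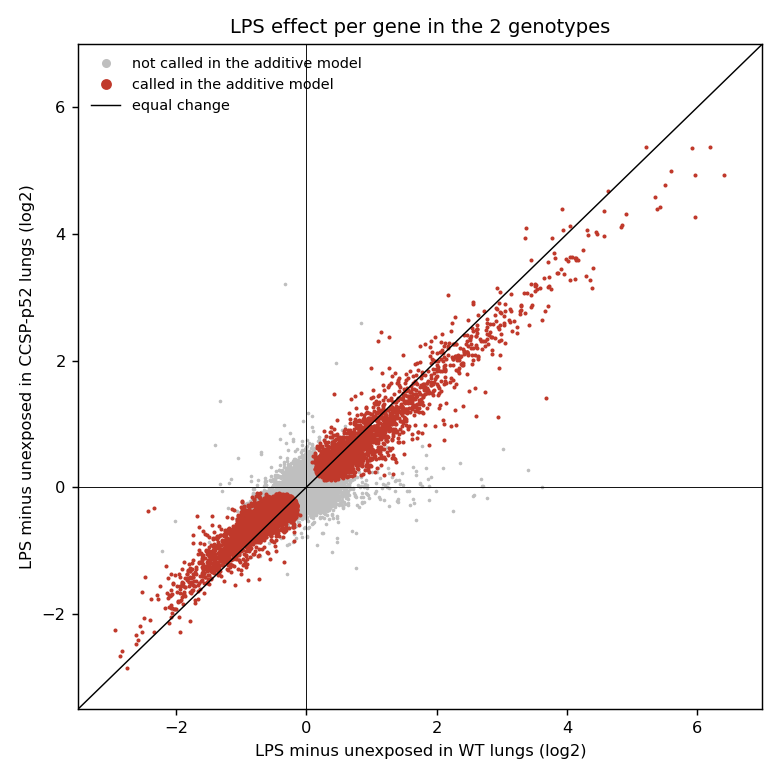
LPS effect of each of 18820 genes in WT lungs (horizontal axis, log2) against that in CCSP-p52 lungs (vertical axis, log2), with genes called in the additive model in red and the line of equal change in black. Called genes run along the line in both directions and mostly lie a little nearer to 0 in CCSP-p52 lungs. They were called over both genotypes together, a choice that favours agreement, and all 6492 had the same sign in both. The grey points at the right with values near 0 in CCSP-p52 lungs include Krt13 and Krt5, which were high in WT LPS pool 2.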

How the data were processed

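RNA of whole lungs from pools of 3 mice was hybridised to 8 Affymetrix Mouse Gene ST arrays. The authors background-corrected, normalised and summarised the arrays by RMA, and the deposited values are log2 levels per probe set. No depth applies to arrays, and 2 pools a group limit the precision. Of 35556 probe sets, 21218 (59.7%) had exactly 1 gene symbol in the platform annotation (checked through RefSeq gene IDs, none needed an update), and the probe set with the highest mean over 8 arrays stood for each of 18820 genes. From the deposited log2 values limma 3.58.1 (R 4.3.3) fitted LPS and genotype additively, as in the methods of the study, and separately the 4 groups with their interaction, with Benjamini-Hochberg adjustment over all genes. On simulated data of 18820 genes the additive fit called 59.7%, 97.0% and 98.5% of genes changed by 0.5, 1 and 2 on the log2 scale, with 8 false calls. Only 67, 67 and 66 genes were changed by these sizes, and each gene had the same spread on all arrays. In the real data 34.5% of genes were called and the LPS pools of a group differed more, so these rates may not carry over. The 68 gene lists (1228 entries, 1117 of them measured) and the comparison were chosen with earlier results of these data known, and lists are described by counts and medians without a set test. Genes named were drawn from candidates set by fixed rules. Not every candidate is printed, for example not all of the 15 largest falls. The candidates were the 15 largest changes each way, set markers and the 8 genotype differences each way with the smallest p. Each list added the 5 smallest p, the 3 largest changes, up to 3 against the list median and up to 2 not passed. The labels share replicate numbers, and same-numbered pools deviated together in all 6 pairs of groups (correlations of 0.13 to 0.36 over genes, which are not independent). Whether the numbers pair the pools is not stated in the labels. The main fits did not use them, and fits with the replicate number as a block are given as alternatives (2900 genes higher and 4253 lower in the additive model). No source used here says whether pools of a group came from separate experiments, so p-values measure the spread between pools, which may be partly technical.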

Additional observations from a re-analysis of the deposited data

Results flagged for a closer look

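Gene list means were checked for single arrays far from the rest in 136 groups of 4 arrays, and 6 stood out, where chance alone flags about 1 in 20 groups. After LPS, the mesothelial list mean was 10.4 in CCSP-p52 pool 2 and at most 9.56 in the other LPS pools. The skeletal muscle list mean was 9.16 in WT pool 2 and at most 7.13 in the others, and the squamous and basal epithelium list mean 9.85 in WT pool 2 and at most 6.43. The heat shock chaperone list mean was 10.4 in CCSP-p52 pool 2 and at least 10.6 in the others. Without LPS, the TNF superfamily list mean was lowest, at 8.24, in WT pool 2, and the itaconate, arginine and nitric oxide list mean was highest, at 8.27, in CCSP-p52 pool 1, with the next arrays at 8.33 and 8.08.

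Krt13 moved in opposite directions in the genotypes, up in both WT pools and down in both CCSP-p52 pools, with a CCSP-p52 minus WT difference of −2.93 (limma adjusted p = 0.92), and its level was high in WT LPS pool 2 alone. Among the genes named for a small interaction p, 9 others also moved in opposite directions in both pools of each genotype, and none passed (limma adjusted p = 0.92 for each). Choice by that p favours opposite directions, so their number is no evidence of a genotype effect. Of all 18820 genes, 74.9% had the same sign in both genotypes. The CCSP-p52 minus WT difference was −0.81 for 4931417E11Rik, −0.88 for Cblif, −0.89 for Nipsnap3a, −1.40 for Olfr1382, −0.76 for Olfr5 and −0.92 for Tex24, which were up in WT and down in CCSP-p52 lungs, and 0.60 for Mtrf1, 0.63 for Tmem60 and 0.77 for Zfp600, which were down in WT and up in CCSP-p52 lungs.

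Probe sets left out of the gene comparison also moved. Of 12457 probe sets with no symbol 912 were higher and 835 lower after LPS, and of 1881 with several symbols 240 were higher and 210 lower. These calls are from the additive test adjusted over all 35556 probe sets together. Under that adjustment 2220 of the 18820 genes were higher and 3450 lower, so probe sets with no symbol moved in smaller shares than genes.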

How the results depend on the processing

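The additive counts (2562 genes higher and 3930 lower) stayed within 1.5 times under the other probe set rules, the filter on dim genes, trended and robust moderation, array weights, both scalings, the averaged 4-group effect and the replicate block (2900 and 4253). At an adjusted p under 0.01 they were 1406 and 2228, and against a logFC of 0.41 (treat) 691 and 606. Median centring moved the median logFC of all genes from 0.00 to 0.05. Leaving out 1 array at a time gave 1752 to 3272 genes higher and 2773 to 4712 lower, and by at least 1, 601 to 857 and 384 to 724. Without both second LPS pools 851 genes were lower by at least 1.

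In WT lungs single arrays left out gave 134 to 2458 genes higher and 110 to 3793 lower. At an adjusted p under 0.01 the counts were 368 and 417, and by treat 369 and 245, and 2667 genes were higher with array weights and 2796 without both second LPS pools. In CCSP-p52 lungs single arrays left out gave 33 to 2258 higher and 13 to 2826 lower. The counts there were 1428 and 1514 with the replicate block, 496 and 529 with all probe sets adjusted together, 1937 and 2582 with array weights, 135 and 86 at an adjusted p under 0.01, 205 and 73 by treat, 2785 and 3402 without both second LPS pools, and 87 and 30 from the 4 arrays alone. The replicate block changed no call between genotypes. The interaction gave 0 genes higher and 0 to 78 lower with single arrays left out. The cause of these shifts was not tested, though a stricter threshold or fewer arrays lowers counts by construction. None of the named genes changed direction while called under any alternative run, and over all alternatives 128 single values lost and 33 gained a call.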
